A study of Mus musculus with 10 samples.

Results

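The genes described here are 10 RNA-binding regulators of alternative splicing in neurons: Mbnl1, Mbnl2, Rbfox1, Rbfox2, Rbfox3, Nova1, Nova2, Celf2, Srrm4 and Ptbp2. They were taken by name, with all their transcripts, and make up 10 of 22255 genes in the gene table and 120 of 102392 transcripts in the transcript table. The list was chosen by a measured value among others, the difference of 1 Mbnl2 transcript between the treatments in these same libraries, so every comparison of the treatments below is a description. RNA came from synaptoneurosomes, a preparation of synaptic compartments, made from the hippocampus of C57Bl/6J mice. Vehicle was given to the mice of 5 libraries, and 5 came from mice given AM6545, an antagonist of the cannabinoid receptor CB1 that enters the brain poorly. All the mice were wild type, and the AM6545 was given sub-chronically. The labels give no age, sex, dose or batch, and do not say whether a library is 1 animal or a pool, so p-values measure the spread between libraries, which may be partly technical.

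Splicing regulators bind short motifs in pre-mRNA and decide, by position, whether a nearby exon is kept or skipped. MBNL and CELF proteins often act against each other on the same exons, RBFOX and NOVA proteins shape synaptic and ion channel isoforms, PTBP2 holds back adult neuronal exons, and SRRM4 promotes very short neuronal exons. Several of these genes are themselves spliced, and the exon chosen changes where the protein goes in the cell or how it binds RNA, so the members were described by level, by transcript and by exon.

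Library totals lay between 18106112 and 25899794 estimated counts. Neuronal markers were abundant: the summed level of 8 neuronal genes, 1 of which is the member Rbfox3, was 6305 to 8119 CPM, here counts scaled to a common library total by TMM. Markers of other cells were present too, at 11663 to 27446 CPM for 5 oligodendrocyte genes and 1083 to 1871 CPM for 5 astrocyte genes. The sum of 6 choroid plexus genes went from 61.9 to 5059 CPM. Fitted differences were below 0 in AM6545 for 6 of 6 choroid plexus, 5 of 6 hippocampal, 1 of 5 astrocyte, 0 of 5 oligodendrocyte and 0 of 4 red blood cell genes. The neuronal, microglial and endothelial lists were mixed, with 3 of 8, 4 of 6 and 3 of 5 below 0. For each of the 9 marker lists, 1 of which, nuclear RNA, had only 1 of its 5 genes matched, the ranges of the vehicle and AM6545 libraries overlapped, and the part of these cells in the results below was not tested. In such bulk RNA, fewer compartments or cells of a type and less RNA in each cannot be told apart.

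The sequences that distinguish the Mbnl and Rbfox transcripts are short cassette exons, printed here because the isoform results turn on them. Each is read from a GENCODE M21 transcript, 5′ to 3′, with the exon in capitals and 15 bases of the neighbouring exons of the spliced transcript in lower case. Coordinates are those of that release on GRCm38 (mm10). The 54-base exon of Mbnl2, chr14:120395712-120395765 on the plus strand, has a near twin in Mbnl1, chr3:60614683-60614736, also on the plus strand. In MBNL proteins this exon promotes nuclear localisation. Of its 54 bases, 46 are identical in the paralogues.
Mbnl2 54-base exon: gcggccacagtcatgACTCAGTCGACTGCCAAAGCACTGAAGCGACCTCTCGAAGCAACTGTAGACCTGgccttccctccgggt
Mbnl1 54-base exon: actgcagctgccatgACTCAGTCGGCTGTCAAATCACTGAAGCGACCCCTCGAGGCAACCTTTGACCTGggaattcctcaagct
The same place in Mbnl2-204, where the exon is skipped, reads as follows, with the downstream exon in capitals.
Mbnl2 junction without the 54-base exon: gcggccacagtcatgGCCTTCCCTCCGGGT

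A 36-base exon follows further downstream in both genes, at chr14:120403336-120403371 in Mbnl2 and chr3:60621423-60621458 in Mbnl1. It has been linked to self-association of MBNL proteins, and 31 of its 36 bases are identical.
Mbnl2 36-base exon: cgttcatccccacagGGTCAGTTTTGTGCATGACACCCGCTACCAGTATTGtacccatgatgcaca
Mbnl1 36-base exon: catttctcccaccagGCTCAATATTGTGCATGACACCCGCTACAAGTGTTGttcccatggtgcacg

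In Rbfox1 and Rbfox2 a 40-base exon, typical of brain, and a 43-base exon, typical of muscle, are alternatives at the same place. In Rbfox1 they lie at chr16:7363865-7363904 and chr16:7369801-7369843, on the plus strand. In Rbfox2 they lie at chr15:77094451-77094490 and chr15:77091812-77091854, on the minus strand. The brain exon was the better conserved of the pair between the paralogues, with 34 of 40 identical bases against 27 of 43.
Rbfox1 40-base exon: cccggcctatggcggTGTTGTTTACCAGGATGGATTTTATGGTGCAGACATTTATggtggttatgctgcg
Rbfox2 40-base exon: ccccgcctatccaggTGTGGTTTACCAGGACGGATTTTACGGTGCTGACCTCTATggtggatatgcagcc
Rbfox1 43-base exon: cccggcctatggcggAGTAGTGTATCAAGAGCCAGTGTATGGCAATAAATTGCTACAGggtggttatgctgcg
Rbfox2 43-base exon: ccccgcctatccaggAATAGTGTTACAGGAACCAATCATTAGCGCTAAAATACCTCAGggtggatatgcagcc

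Levels of different genes can be compared only per length, as TPM, estimated counts over annotated length scaled to a common total. Over the 10 libraries Rbfox1 was the highest member at 490 ± 39.6 TPM (SD, n = 10), above 98.7% of all genes. Rbfox3, which encodes the neuronal antigen NeuN, followed at 275 ± 23.1 TPM, and Mbnl2 at 227 ± 24.9 TPM. The ranges of Rbfox3 and Mbnl2 overlapped, while that of Rbfox1, from 424 to 554 TPM, lay above both. This order rests on the annotated lengths, such as 1191 bases for Rbfox1-202 and 4534 bases for Mbnl2-202. Whether those lengths fit the RNA present was not tested.

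Celf2, a CUG-binding regulator, stood at 74.7 ± 6.98 TPM (SD, n = 10). Ptbp2, the neuronal polypyrimidine tract binding protein, stood at 57.4 ± 11.4 TPM, Rbfox2 at 45.8 ± 9.48 TPM and Mbnl1 at 37.5 ± 6.19 TPM. Each of these 4 overlapped its neighbour in the order. Well below them came Nova2 at 5.53 ± 0.820 TPM, Nova1 at 4.54 ± 0.659 TPM and Srrm4 at 3.997 ± 0.594 TPM. Their ranges also overlapped, so the order among them did not exceed the spread. Of the Mbnl genes, Mbnl2 ranged from 198 to 278 TPM and Mbnl1 from 25.6 to 48.0 TPM, so every library had more Mbnl2 than Mbnl1.

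**Figure D1:**
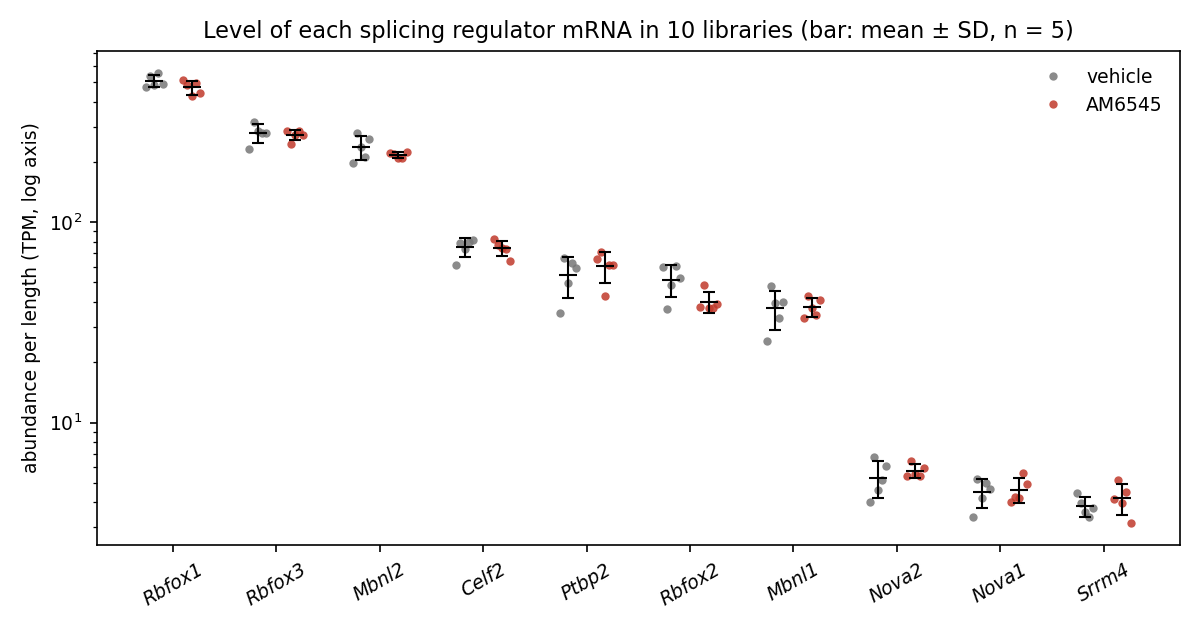
Abundance per length (TPM, log axis) of the 10 genes in each of 5 vehicle and 5 AM6545 libraries, as points, with the mean and SD of each group as bars. Rbfox1 (490 TPM on average), Rbfox3 and Mbnl2 form the top of the order, and Nova2, Nova1 and Srrm4, at 3.997 to 5.53 TPM, the bottom, with vehicle and AM6545 points mixed.

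Gene totals of the 10 members differed little between treatments. A fitted difference below 0 in AM6545 was found for 7 and above 0 for 3, with a median of -0.06 on the log2 scale beside -0.01 over all 14358 genes tested. None of the 10 passed an adjusted p of 0.05 in edgeR's quasi-likelihood test (adjusted p = 0.9998 for each), and 1 of 10 had an unadjusted p under 0.05. DESeq2's Wald test gave the same counts, 0 and 1. Over all genes the share called was 0% by either tool, the share with an unadjusted p under 0.05 was 1.88% in edgeR and 1.92% in DESeq2, and 0.293% had CPM ranges that did not overlap between the groups. For all 10 members the ranges overlapped.

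Among the Mbnl genes, Mbnl2 had 315, 364, 353, 327 and 369 CPM in vehicle libraries 1 to 5, and 316, 332, 309, 309 and 315 CPM in AM6545 libraries 1 to 5. Of the AM6545 values, 2 of 5 lay just below every vehicle value, and the vehicle group spread more widely. The means were 346 ± 23.7 and 316 ± 9.44 CPM (SD, n = 5), a log2 difference of -0.13 (SE 0.087). Mbnl1 had 58.7, 90.7, 82.0, 74.0 and 87.2 CPM in vehicle and 67.0, 81.6, 76.4, 74.2 and 79.3 CPM in AM6545. Every AM6545 value of Mbnl1 lay inside the vehicle range, and the log2 difference was -0.05 (SE 0.11), which turned to 0.0047 without vehicle replicate 2.

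Among the Rbfox genes the highest ratio of difference to error belonged to Rbfox2. Rbfox2 had 57.8, 33.5, 45.8, 54.5 and 48.5 CPM in vehicle, and 39.8, 46.2, 35.4, 39.5 and 35.4 CPM in AM6545. In vehicle, 3 of 5 values were above all AM6545 values, but the lowest value of all was vehicle replicate 2. Its log2 difference was -0.29 (SE 0.13), and it is the member counted above with an unadjusted p under 0.05. With each library left out in turn, the count of members under 0.05 was 1 in 2 fits, without vehicle replicate 2 and without AM6545 replicate 2, and 0 in the other 8.

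Rbfox1 ranged from 351 to 415 CPM in vehicle and from 319 to 367 CPM in AM6545, a log2 difference of -0.12 (SE 0.092). In AM6545, 2 of 5 libraries lay below every vehicle library. Rbfox3 ranged from 253 to 274 CPM and from 242 to 268 CPM, a log2 difference of -0.05 (SE 0.083). In vehicle it had the smallest SD relative to its mean among the 10 genes, 8.80 CPM around 267 CPM.

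Nova1 and Nova2 encode the neuron-specific NOVA proteins, and their differences had opposite signs. Nova1 ranged from 14.2 to 18.2 CPM in vehicle and 13.8 to 18.4 CPM in AM6545 (log2 difference -0.07, SE 0.11). Nova2 ranged from 19.8 to 26.1 CPM and from 22.7 to 28.0 CPM (log2 difference 0.10, SE 0.11). Celf2 gave a log2 difference of -0.08 (SE 0.094), from a mean of 163 ± 11.1 CPM to 155 ± 14.1 CPM (SD, n = 5).

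Ptbp2 averaged 94.8 ± 17.2 CPM in vehicle and 103 ± 17.4 CPM in AM6545 (SD, n = 5; log2 difference 0.12, SE 0.14). Srrm4, the microexon regulator, had 19.6, 13.7, 14.2, 13.2 and 13.98 CPM in vehicle and 15.1, 19.3, 15.4, 16.3 and 11.8 CPM in AM6545. Vehicle replicate 1 stood apart from the other 4 vehicle libraries, and the AM6545 values lay on both sides of those 4. The log2 difference of Srrm4 was 0.06 (SE 0.14) and became -0.03 without AM6545 replicate 2.

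Of the 120 transcripts, 105 had a count in some library, 52 passed the filter on low counts and 49 entered the comparison of shares, the percentage of a gene's counts assigned to a transcript. Nova1, Nova2 and Srrm4 contributed none of these 49, because 1 transcript held 99.4%, 100% and 99.6% of their counts. The others were mixtures. The effective number of transcripts, the number of equally used transcripts that would give the same diversity, was 6.27 for Celf2, 5.19 for Rbfox2, 4.09 for Mbnl2, 3.57 for Rbfox1, 2.31 for Mbnl1, 2.26 for Rbfox3 and 2.03 for Ptbp2.

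None of the 52 transcripts passed at transcript level in edgeR, where 0.00314% of all 31848 transcripts were called. An unadjusted p under 0.05 was found for 2 of the 52, beside 1.97% of all. DESeq2's Wald test called 1 of the 52, Mbnl2-208, beside 0.0346% of all transcripts with an adjusted p there. None of the 49 passed in the limma fit of shares, where 0.0156% of all 25706 were called, and 2 had an unadjusted p under 0.05, beside 3.93% of all. In edgeR's diffSpliceDGE none passed and 0 had an unadjusted p under 0.05, beside 0.0195% and 0.821% of all. Among the 49, 2 had shares whose vehicle and AM6545 ranges did not overlap, Mbnl2-208 and Rbfox3-209, beside 0.638% of all transcripts. Nothing is read from any of these counts or from the DESeq2 call, since the Mbnl2 transcript's difference in this contrast is what chose the list.

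Mbnl2 was spread over 5 transcripts with 5% or more of its counts. Mbnl2-202, which carries both the 54-base and the 36-base exon, held 34.1%, and Mbnl2-204, which carries neither, held 29.7%. Mbnl2-205, annotated without a coding sequence, held 13.6% and Mbnl2-208 held 13.1%. Mbnl2-201, with the 54-base exon alone, held 6.22%. The annotated coding sequences follow from the exons, at 1155 bases for Mbnl2-202, 1119 bases for Mbnl2-201 and Mbnl2-208, and 1065 bases for Mbnl2-204.

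Mbnl2-208, ENSMUST00000227594.2, held 14.03, 14.8, 17.3, 14.5 and 14.8% of Mbnl2 counts in vehicle libraries 1 to 5. In AM6545 libraries 1 to 5 it held 13.3, 9.52, 9.37, 11.6 and 11.4%. All 5 AM6545 values lay below all 5 vehicle values, with AM6545 replicate 1 the closest. The means were 15.1 ± 1.26% and 11.03 ± 1.63% (SD, n = 5), a difference of -0.53 in log2 odds (SE 0.16), from estimated counts of 525 to 1282 per library. In diffSpliceDGE the coefficient was -0.32, which is on the natural log scale, so its size cannot be set against the log2 odds.

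The level of Mbnl2-208 itself averaged 52.5 ± 6.67 CPM in vehicle and 35.0 ± 5.02 CPM in AM6545 (SD, n = 5), a log2 difference of -0.58 (SE 0.12). Its nearest relative, Mbnl2-204, averaged 97.7 ± 9.03 and 99.6 ± 10.1 CPM, and its share was 28.1 ± 1.65% and 31.4 ± 2.48%. In AM6545, 3 of 5 libraries lay above every vehicle share of Mbnl2-204, and the ranges overlapped. Mbnl2-202 held 34.3 ± 3.19% and 33.8 ± 2.51%, Mbnl2-205 13.5 ± 1.39% and 13.7 ± 1.58%, and Mbnl2-201 5.58 ± 1.52% and 6.87 ± 1.31%, all with overlapping ranges.

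Mbnl2-208 and Mbnl2-204 share the last exon, chr14:120428935-120429626, which ends 692 bases into the longer last exon used by Mbnl2-201. They differ at the start and in the 54-base exon: Mbnl2-208 begins with a 90-base exon at chr14:120306452-120306541 and Mbnl2-204 with a 200-base exon at chr14:120275706-120275905. Together the 2 transcripts with the short 3′ end made up 43.2 ± 1.87% of Mbnl2 counts in vehicle and 42.4 ± 1.48% in AM6545 (SD, n = 5), with overlapping ranges. Within that pair Mbnl2-208 took 32.5, 35.7, 38.5, 35.3 and 32.7% in vehicle and 30.96, 21.6, 22.2, 29.1 and 26.6% in AM6545. The pair's sum overlapped between groups. Its division did not, but that restates the share of Mbnl2-208, whose difference chose the list. The transcripts that begin with the first exon of Mbnl2-201 held 68.0 ± 2.32% in vehicle and 72.1 ± 1.92% in AM6545, with 4 of 5 AM6545 libraries above every vehicle library. Mbnl2-208 is not among them, so that difference is in part the other side of its lower share.

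**Figure D2:**
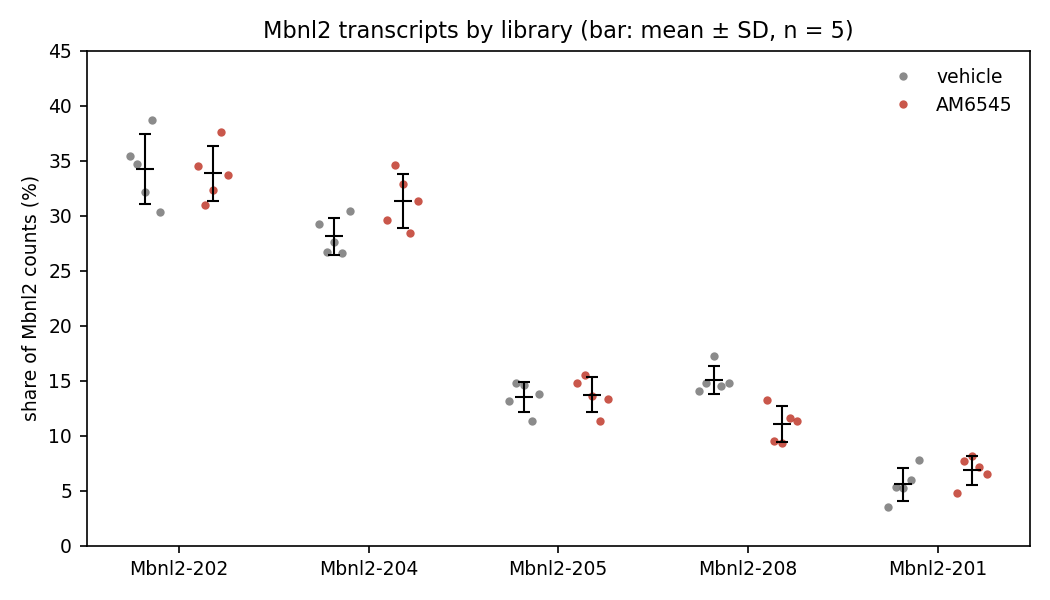
Share of Mbnl2 estimated counts (%) held by the 5 main Mbnl2 transcripts in each library, as points, with mean and SD per group (n = 5) as bars. For Mbnl2-208 the AM6545 points (9.37 to 13.3%) lie below the vehicle points (14.03 to 17.3%), and for the other 4 transcripts the points overlap.

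Counted by exon and per length, 49.7 ± 3.11% of Mbnl2 transcripts that span the site carried the 54-base exon in vehicle and 45.5 ± 2.88% in AM6545 (SD, n = 5). The vehicle libraries gave 45.2, 49.9, 51.4, 53.4 and 48.5%, and the AM6545 libraries 47.9, 43.9, 42.1, 49.0 and 44.5%. In AM6545, 3 of 5 libraries lay below every vehicle library and the ranges overlapped. Mbnl2-208, whose difference chose the list, is among the transcripts that carry this exon. It made up 18.2% of Mbnl2 per length in vehicle and 13.5% in AM6545, so the exon's lower mean is not a separate observation. The 36-base exon was carried by 31.8 ± 3.45% in vehicle and 30.8 ± 3.60% in AM6545, with overlapping ranges. These exons and groupings of transcripts were chosen after the transcript shares had been seen.

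Mbnl1 used the same pair of exons in other proportions. Over the 10 libraries its 54-base exon was carried by 25.0 ± 9.46% of the transcripts that carry or skip it (SD, n = 10), against 47.6 ± 3.58% in Mbnl2. The ranges, 15.1 to 44.5% and 42.1 to 53.4%, overlapped through AM6545 replicate 2. Its 36-base exon was carried by 74.5 ± 11.7%, against 31.3 ± 3.36% in Mbnl2, with no overlap between 46.6 to 84.99% and 24.9 to 35.9%. Mbnl1-201, which skips the 54-base exon and keeps the 36-base exon, held 63.0% of Mbnl1 counts, and Mbnl1-214, with the opposite choice, 16.6%.

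The Mbnl1 exons varied widely within each group. The 54-base exon was carried by 37.6, 19.5, 24.5, 15.1 and 16.2% in vehicle and 23.7, 44.5, 27.6, 18.0 and 23.6% in AM6545. Vehicle replicate 1 and AM6545 replicate 2 were the high libraries of their groups, and they were also the low ones for the 36-base exon, at 62.9 and 46.6%. A 95-base exon of Mbnl1, chr3:60622146-60622240, was carried by 93.5 ± 3.31% in vehicle and 90.4 ± 6.96% in AM6545 (SD, n = 5).

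Among the Rbfox genes, inclusion of the 93-base exon, which encodes part of the RNA recognition motif, was near complete in Rbfox1 and Rbfox3. No annotated Rbfox1 transcript spans the site without it, so its 100% in every library is set by the annotation. In Rbfox3 the exon, chr11:118502842-118502934 on the minus strand, was carried by 98.2 ± 0.630% of the transcripts that carry or skip it (SD, n = 10). In Rbfox2 it was carried by 89.0 ± 4.89%, from 78.5 to 97.2%, with means of 89.0% in both groups. The Rbfox1 and Rbfox2 exons are identical at 86 of 93 bases, and the Rbfox3 exon matches each of them at 69 of 93, as the sequences show.
Rbfox1 93-base exon: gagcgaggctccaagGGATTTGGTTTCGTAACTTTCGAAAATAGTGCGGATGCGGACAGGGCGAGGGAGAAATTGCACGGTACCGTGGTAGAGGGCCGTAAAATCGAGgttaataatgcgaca
Rbfox2 93-base exon: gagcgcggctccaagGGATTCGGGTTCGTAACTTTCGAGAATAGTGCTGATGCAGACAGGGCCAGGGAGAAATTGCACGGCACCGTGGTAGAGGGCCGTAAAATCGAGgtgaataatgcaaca
Rbfox3 93-base exon: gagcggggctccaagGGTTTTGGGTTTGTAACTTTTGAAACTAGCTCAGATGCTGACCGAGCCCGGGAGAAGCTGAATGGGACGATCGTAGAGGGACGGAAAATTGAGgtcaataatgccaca

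Per length, the brain-type 40-base exon was carried by 95.3 ± 1.42% of the Rbfox1 transcripts that carry or skip it (SD, n = 10). For the 43-base exon it was 4.75 ± 1.42%. In Rbfox1 the transcripts that skip either exon are those that carry the other, so the second value restates the first. Among the Rbfox1 transcripts left out, which do neither, was Rbfox1-205, with 17.0% of counts and 16.2% per length. Among those of Rbfox2 were Rbfox2-212, with 9.32% of counts and 18.9% per length, and Rbfox2-213, with 2.92% and 6.13%. In Rbfox2 the 40-base exon was carried by 67.8 ± 4.62% and the 43-base exon by 15.5 ± 5.04%. The ranges of the 2 genes did not overlap for either exon: for the 40-base exon they were 93.3 to 97.5% in Rbfox1 and 60.5 to 73.6% in Rbfox2. Between treatments the means were 95.4 and 95.1% in Rbfox1, and 69.6 and 66.0% in Rbfox2, with overlapping ranges in both genes.

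Rbfox3-204 held 60.5% of Rbfox3 counts, with 60.3 ± 1.74% in vehicle and 60.7 ± 1.62% in AM6545 (SD, n = 5). Rbfox3-205 held 26.6% and Rbfox3-201 5.79%, with overlapping ranges. A minor transcript, Rbfox3-209, held 2.09, 1.67, 1.97, 2.23 and 1.37% in vehicle and 1.27, 1.04, 0.769, 1.30 and 0.873% in AM6545. All 5 AM6545 values lay below the vehicle values, on estimated counts of 37 to 149 per library. Its difference in log2 odds was -0.85 (SE 0.26).

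Of the main Rbfox1 transcripts, Rbfox1-202 held 44.9%, Rbfox1-201 18.9%, Rbfox1-205 17.0%, Rbfox1-208 9.65% and Rbfox1-207 6.46%. Rbfox1-201 had 4 of 5 AM6545 libraries above every vehicle library, at 17.9 ± 0.911% and 19.96 ± 1.92% (SD, n = 5), and the ranges overlapped through AM6545 replicate 1. Rbfox2 had no dominant form: Rbfox2-209 held 29.8%, Rbfox2-204 27.1%, Rbfox2-201 10.9%, Rbfox2-212 9.32% and Rbfox2-206 6.01%. Rbfox2-204 went from 9.80 to 43.8% among the libraries, and both ends of that range came from replicates numbered 2, in different groups. Summed with Rbfox2-203, the low end, AM6545 replicate 2, became 31.9%. The sum ranged from 17.97 to 43.8% in vehicle and from 30.8 to 39.4% in AM6545.

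Celf2 was divided most evenly. Celf2-206 held 24.7% of its counts, Celf2-226 20.99%, Celf2-202 16.1%, Celf2-223 11.2%, Celf2-201 10.2% and Celf2-224 5.17%. Celf2-201 and Celf2-202 traded places: in vehicle replicate 2 they held 20.5 and 7.22%, and in vehicle replicate 3 they held 2.93 and 25.3%. Their sum was steadier, at 26.0 ± 3.26% in vehicle and 26.6 ± 3.57% in AM6545 (SD, n = 5).

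**Figure D3:**
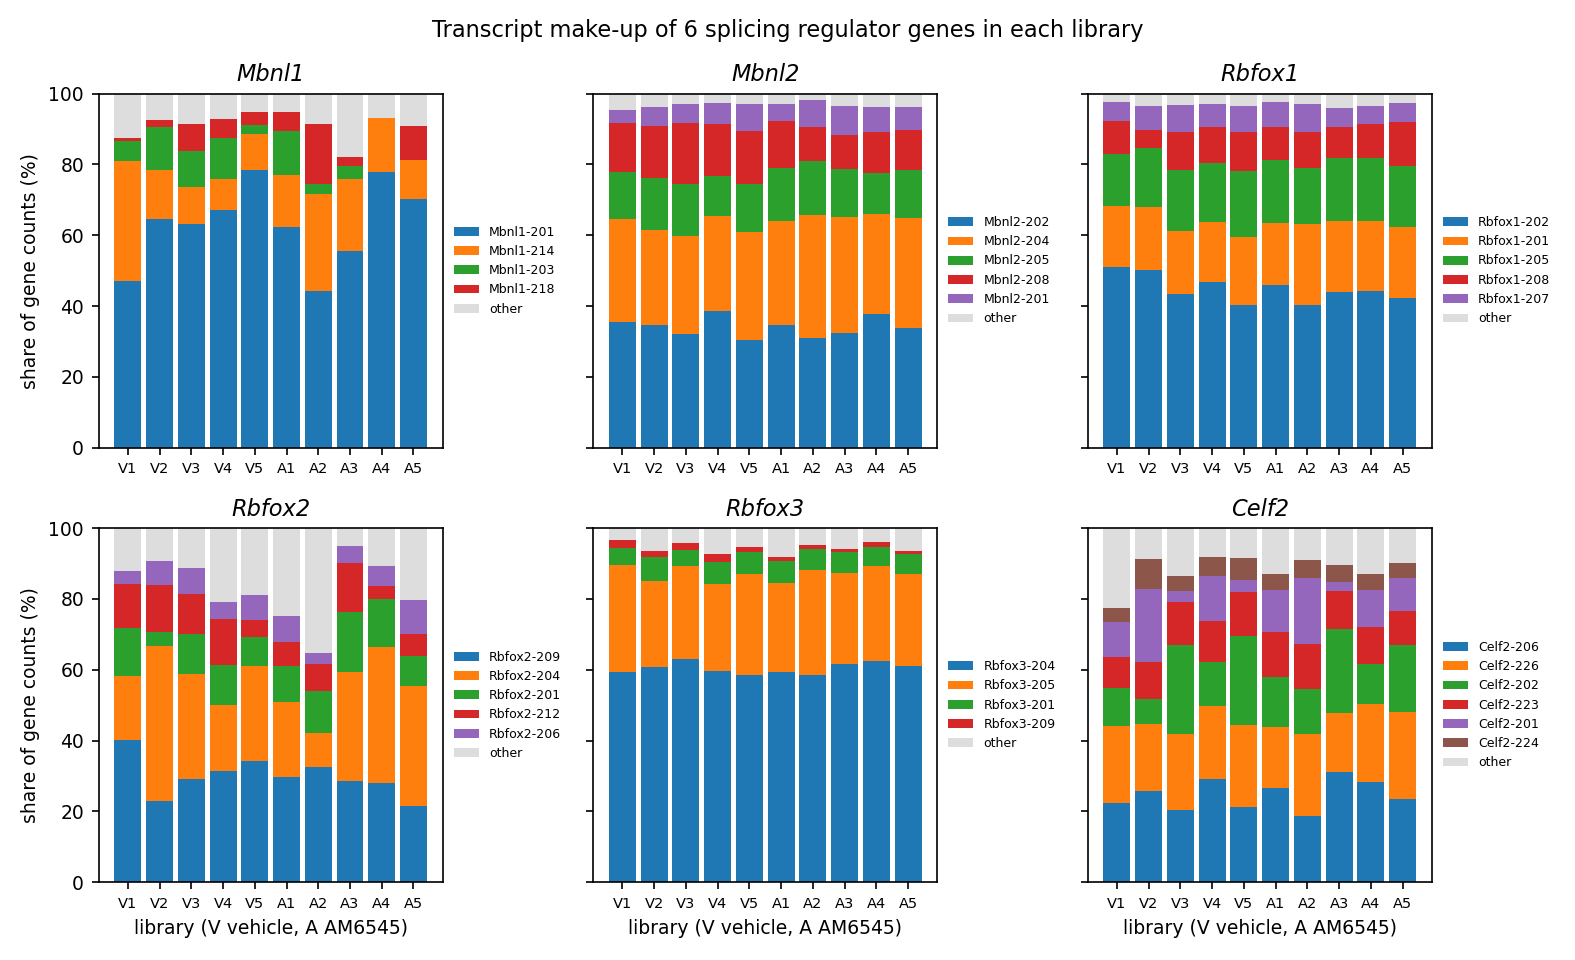
Stacked shares (%) of each gene's estimated counts held by its named transcripts in vehicle libraries V1 to V5 and AM6545 libraries A1 to A5, with all remaining transcripts in grey. Rbfox3 looks alike from library to library, as in Rbfox3-204 (58.5 to 63.1%), and Rbfox1 less so, as in Rbfox1-202 (40.2 to 51.0%). Mbnl1, Rbfox2 and Celf2 change within both groups, as in Celf2-201 (2.46 to 20.5%).

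Ptbp2 was shared by Ptbp2-201 at 55.0% and Ptbp2-213 at 43.7%. A 34-base exon of Ptbp2, chr3:119724612-119724645 on the minus strand, is known from development: when it is skipped the reading frame shifts and the RNA is degraded.
Ptbp2 34-base exon: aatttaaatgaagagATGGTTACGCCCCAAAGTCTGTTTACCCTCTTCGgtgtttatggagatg
It was carried by 98.2 ± 2.79% of the Ptbp2 transcripts that carry or skip it in vehicle and 99.3 ± 1.09% in AM6545 (SD, n = 5), per length and with overlapping ranges. The main transcripts that skip it, Ptbp2-206 and Ptbp2-208, had between 0 and 26.1 estimated counts together per library.

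**Figure D4:**
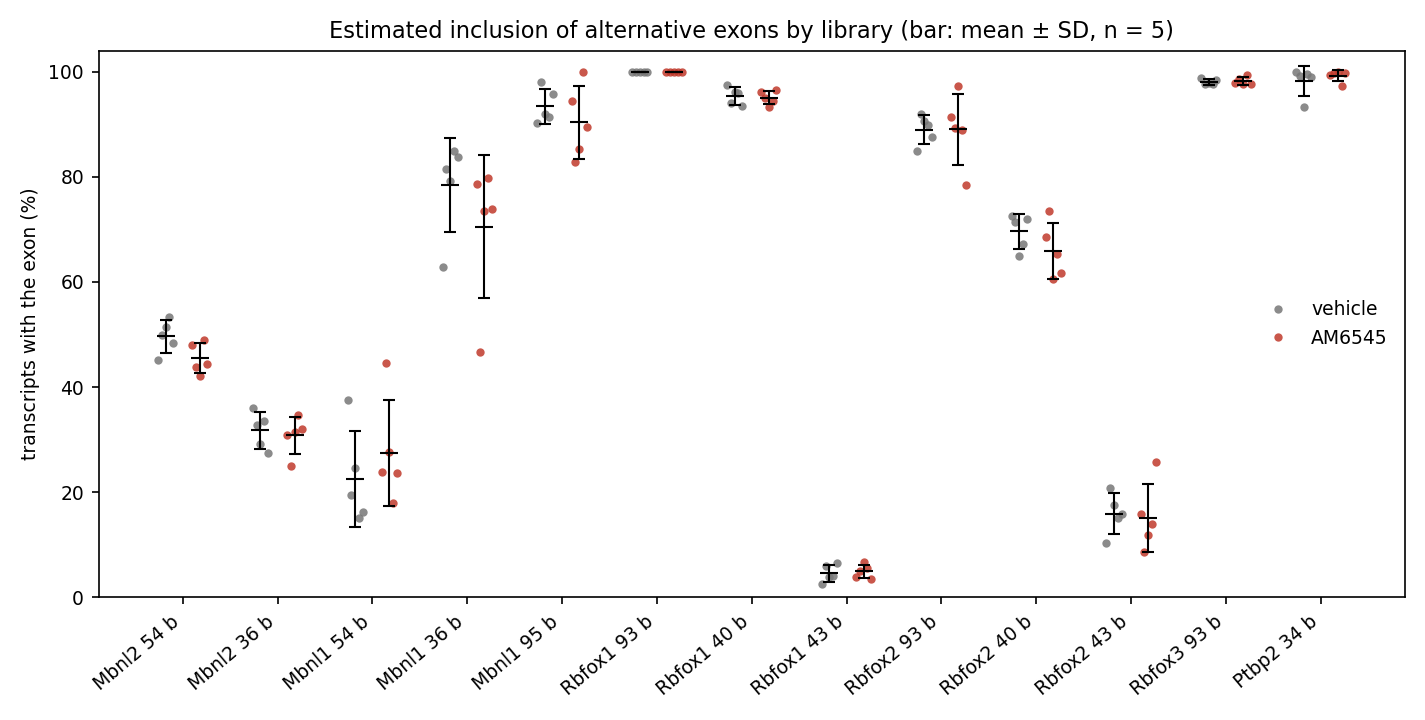
Estimated percentage of transcripts, per length, that carry each of 13 alternative exons (b, bases) in each library, with mean and SD per group (n = 5). Transcripts that neither carry nor skip an exon are left out. Inclusion differs between paralogues, as for the 36-base exon of Mbnl1 (74.5%) and Mbnl2 (31.3%), and vehicle and AM6545 points overlap for every exon shown.

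The precision of the shares is limited by how far transcripts can be told apart. Of the 35 transcripts named by rule, 15 have no 31-base word of their own within their gene, among them Mbnl2-202, Mbnl2-204 and Rbfox3-204. Mbnl2-208 has 34 such words, or 1.48% of its sequence, and Rbfox3-209 has 355, or 40.8%. Between genes there was little to confuse: at most 3.25% of a member's words, in Nova1, occur in transcripts of another gene, and at most 0.350% in each of the other 9. Reads from overlapping genes could be counted for a member: Celf2, Mbnl2, Nova2 and Srrm4 overlap exons of Gm26565, Gm26679, Gm26821 and Srrm4os on the other strand, and Nova1 overlaps Gm33869 on its own strand. Whether counting used strand is not given in the sources used here.

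The spread of a share within its group was set against its counting error. Over 17625 transcripts with a mean share of 5 to 95% the median ratio was 3.39, with 1.64 at the 10th and 8.46 at the 90th percentile. The ratio was 12.6 for Celf2-201, 11.01 for Celf2-202, 10.1 for Mbnl1-201, 7.37 for Rbfox2-204 and 6.24 for Rbfox1-202. It was 3.63 for Mbnl2-208 and 2.57 for Rbfox3-204. A ratio of 1 would be counting error alone, and these members all lay above it.

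Transcripts not annotated as protein coding made up 14.1 ± 1.39% of Mbnl2 counts in vehicle and 14.4 ± 1.39% in AM6545 (SD, n = 5), nearly all of it Mbnl2-205. In the other 8 genes with several transcripts the means ran from 0.0548 to 2.80%. In exact permutation tests (two-sided, n = 5 per group, where the smallest possible p is 0.00794), 0 of these 8 genes had an unadjusted p under 0.05. The smallest was 0.0635, for Nova1, at 0.119 ± 0.163% and 0.628 ± 0.563%.

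**Figure D5:**
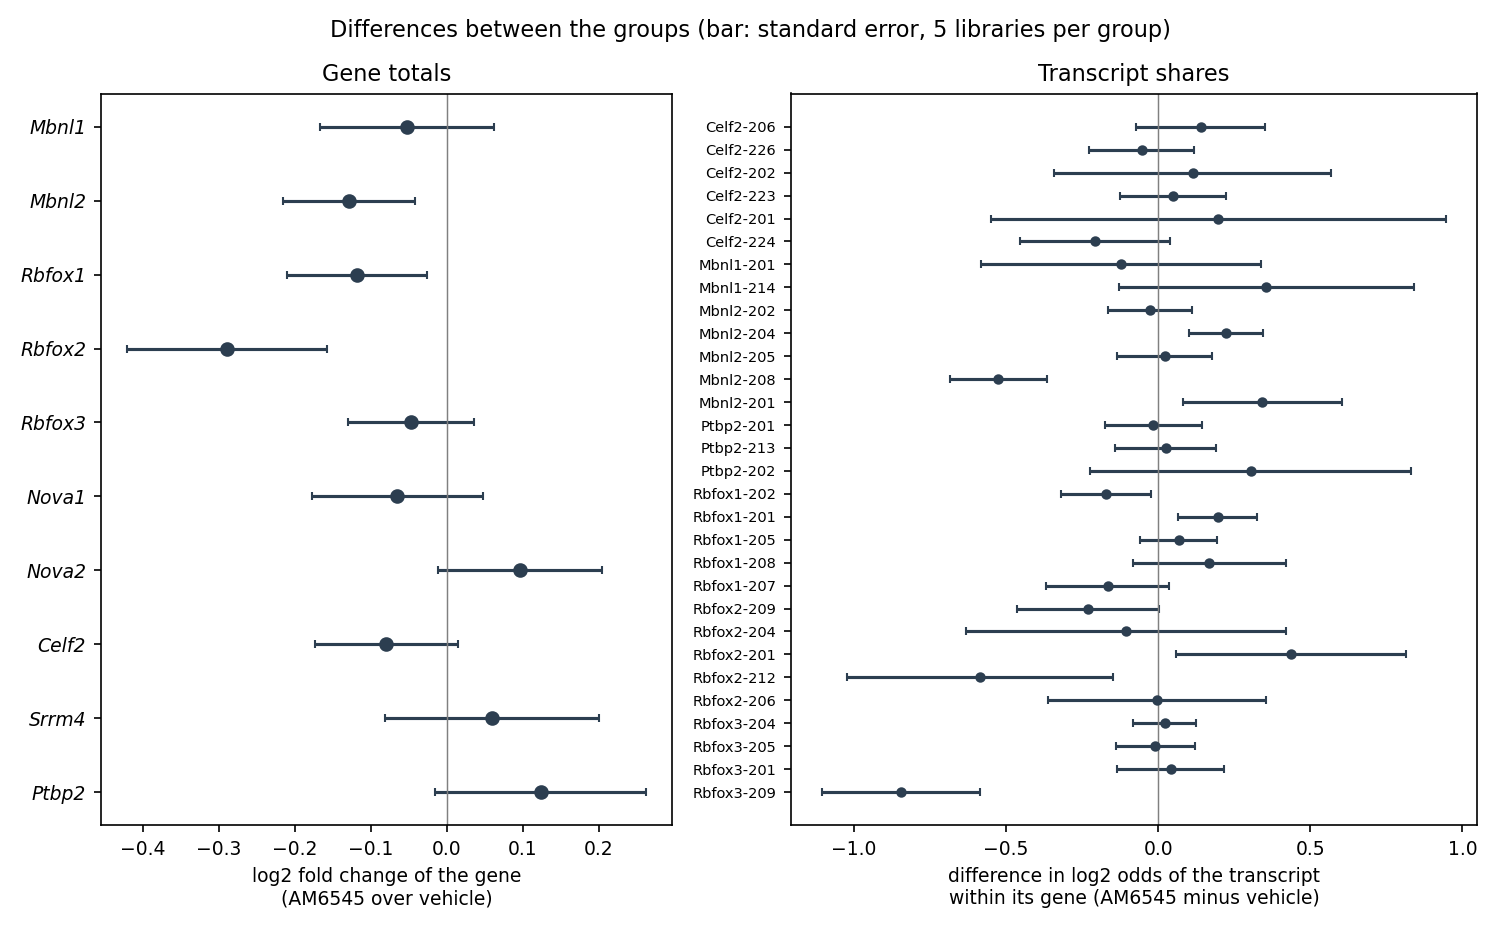
Fitted differences between AM6545 and vehicle with standard errors, at left the log2 fold change of the 10 gene totals from edgeR and at right the difference in log2 odds of named transcripts within their gene from limma. Rbfox2 (-0.29) lies farthest from 0 among the genes, and Rbfox3-209 (-0.85), Rbfox2-212 (-0.59) and Mbnl2-208 (-0.53) among the transcripts drawn; Mbnl1-203 and Mbnl1-218, at 0 counts in some libraries, are not drawn.

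Other regulators of splicing, from a list of 63 such as hnRNP, SR and ELAVL proteins, were measured alongside. Of 59 tested, 0 passed in edgeR, 3 had an unadjusted p under 0.05 with higher values in AM6545 and 0 with lower values. Over all 14358 genes, 164 were higher and 106 lower at that threshold, or 1.88%, beside 5.08% of the list. Of the 59, 40 lay above 0, and the median log2 difference was 0.06, beside -0.01 over all genes and -0.06 over the 10 members. Hnrnpl, a repressor of exons with CA-rich sequence, averaged 38.5 ± 7.93 CPM in vehicle and 48.2 ± 4.93 CPM in AM6545 (SD, n = 5; log2 difference 0.33, SE 0.13, adjusted p = 0.9998 in edgeR). The largest leanings toward lower values by unadjusted p were Ptbp3 (log2 difference -0.15, SE 0.11) and Celf3 (-0.10, SE 0.097).

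Genes known to carry exons regulated by these proteins, a list of 30 that includes Grin1, Mapt and Snap25, gave 0 of 30 called at gene level in edgeR, with 1 unadjusted p under 0.05 and a median log2 difference of -0.01. Of their 170 transcripts in the comparison of shares, 0 passed in limma, 4 had an unadjusted p under 0.05 with a higher share in AM6545 and 1 with a lower share. That is 2.94% of the list, beside the 3.93% given above for all transcripts. The splicing factor Srrm1 was the 1 regulator with a called transcript, Srrm1-202, which had 0 estimated counts in all 5 vehicle libraries and is named after its values were seen. Leaving out each library in turn, it was called in 2 of 10 fits at transcript level and in 10 of 10 in shares. It entered these fits only through its AM6545 counts, so the calls support nothing. With 10 counts required in every library no transcript was called at either level, but that filter removes Srrm1-202 before any test.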

How the data were processed

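Estimated counts of 10 libraries, as the authors deposited them, were used at gene and at transcript level. Salmon 1.5.2 and mm10 are named in the submitters' processing notes, and the annotation release and use of strand are not given in the sources used here. Per the labels, the library kit was a SMARTer kit for ultra-low input. Groups and replicate numbers come from the titles. Transcript names, exons and sequences come from GENCODE M21, matched by identifier without version for 101527 of 102392 transcripts. All 120 member transcripts carry a version 1 above M21, so counting used another release, and exon positions may differ from those counted on.

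Estimated counts were rounded. Gene and transcript levels were fitted over the whole tables with edgeR 4.0.16 (TMM, filterByExpr with a minimum count of 10, quasi-likelihood test, Benjamini-Hochberg adjustment, threshold 0.05), and log2 odds of shares with limma 3.58.1 (pseudocount 0.5). The edgeR and limma standard errors are on the log2 scale. TPM is count over annotated length. Exon inclusion is the percentage that carry an exon among the transcripts that carry or skip it, leaving out all others. Single values had exact permutation tests. The alternatives were other scalings, filters and pseudocounts, DESeq2 1.42.0, diffSpliceDGE, counts per length, the replicate number as a block and leaving out each library. R 4.3.3 and Python 3.11.15 were used.

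The fits were tested on simulated data. The share fit recovered the size and sign of moderate changes but called none of them at the adjusted threshold, and it called very large ones. After that result, the criterion of this check was changed from adjusted calls to size, sign and unadjusted p. A share that was not called can therefore still hold a moderate difference.

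Members and lists were chosen with earlier results of these data known. Transcripts named by rule are those with 5% or more of a gene's counts (at most 5 per gene), the one of smallest unadjusted p in each gene, and Mbnl2-208. Others mentioned fall outside that rule. Other regulators named are the 2 of smallest unadjusted p per direction, 1 of which is not reported here. Exons were chosen after shares were seen.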

Additional observations from a re-analysis of the deposited data

Results flagged for a closer look

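Of 88 groups of 5 libraries examined among the member levels and shares, 6 held a library set apart from its group by Dixon's criterion, which chance gives in about 1 of 20 groups. Srrm4 stood at 19.6 CPM in vehicle replicate 1, against 13.2 to 14.2 CPM in the other vehicle libraries. Mbnl1-214 held 33.9% of Mbnl1 counts in vehicle replicate 1, against 8.76 to 13.8% in the rest of its group. Mbnl1-203 held 12.4% in AM6545 replicate 1, against 0 to 3.60%. Mbnl2-208 held 17.3% of Mbnl2 counts in vehicle replicate 3, against 14.03 to 14.8%. Rbfox1-208 held 5.18% of Rbfox1 counts in vehicle replicate 2, against 9.33 to 10.8%. Rbfox2-212 held 4.75% of Rbfox2 counts in vehicle replicate 5, against 11.2 to 13.2%.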

How the results depend on the processing

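Under the alternatives tried, 0 of the 10 members was called at gene level and 0 of the 49 in shares, and at transcript level DESeq2's Wald test alone called 1, Mbnl2-208. That transcript's difference chose the list, so the call supports nothing. The share of Mbnl2-208 differed by -0.53 in log2 odds. The diffSpliceDGE coefficient, -0.32, has the same sign but is on the natural log scale, so the sizes were not compared. The count of members with an unadjusted p under 0.05 at gene level was 1, and 0 with the replicate block. Over all genes, 0 to 1 was called when each library was left out, against 0 with all 10. Over all transcripts 1 was called, 11 under DESeq2's Wald test, 2 with no filter, 0 with 10 counts in every library, and 0 to 4 with each library left out. Over all shares 4 were called, 2 with a pseudocount of 5, 0 with 10 counts in every library, 7 with a mean share of 1%, and 8 to 14 with each library left out. Each transcript called in the main fits had 0 counts in 5 libraries, so requiring 10 counts in every library removed it before testing. Same-numbered vehicle and AM6545 libraries correlated at -0.186 to 0.393, over 0.1 in 2 of 5 pairs, so the numbers were not taken as pairs. With the replicate number as a block, 0 genes, 0 transcripts and 3 shares were called over all features, and 0 members. The cause of these shifts was not tested. Exon inclusion as a share of counts, an alternative added after seeing the data, gave 63.9 and 60.4% for the Mbnl2 54-base exon in vehicle and AM6545, with overlapping ranges. Mbnl2-208 is part of these values too. The share fit has little power at its adjusted threshold for moderate changes, and 15 of 35 named transcripts have no 31-base word of their own.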
